A study of Mus musculus with 2 samples.

Results

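The immediate early genes described here are Fos, Fosb, Jun, Junb, Jund, Egr1, Nr4a1, Ier2, Ier3 and Dusp1. They were chosen by symbol from the gene list of the deposited counts, and all 10 were found among 28692 genes. Their RNA was measured in single cells that were bound by CD31 beads from the mesentery of C57BL/6 mice at postnatal day 8. There was 1 library per genotype, each with the cells of several pooled mice, and the design addressed what the loss of Flcn changes in endothelial cells. The FlcniΔEC mice carried Flcnflox/flox alleles and Cdh5-BAC-CreERT2, a tamoxifen-inducible Cre driven by an endothelial cadherin gene. The other library was labelled as control, with no genotype given in the labels. For both, 40 µg of 4-hydroxytamoxifen was listed, given under the skin at postnatal days 2, 3.5, 5 and 6.5.

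Immediate early genes are transcribed within minutes of a stimulus, from factors already present in the cell, and their RNAs are short-lived. Growth factors, shear stress, antigen receptors and cytokines induce them through kinases of the MAPK family, and so do handling and enzymatic dissociation of a tissue. Fos and Jun proteins pair to form AP-1, a transcription factor that acts in endothelial activation and in lymphocyte responses.

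The control library held 6814 cells with 64639756 unique molecular identifiers (UMIs) and a median of 7283 per cell. The FlcniΔEC library held 4459 cells with 60805779 UMIs and a median of 8587. These cell numbers are those of the deposited barcodes. Cells with at least 2 UMIs of Cdh5 (VE-cadherin) were taken as endothelial, which gave 566 control and 892 FlcniΔEC cells with median depths of 16127 and 24415 UMIs. Lymphocytes, called from T cell and B cell markers or, for innate lymphoid cells (ILCs), from Il7r with Kit, Il22 or Tnfsf11, numbered 5306 and 2807, with median depths of 7050 and 7915 UMIs. Any cell with 2 UMIs of Cdh5 is outside the lymphocytes by this rule, so their level of the gene that drives Cre could not be judged. Egfl7, a marker of endothelium that was not used in the gate, was at 1302 and 1454 CPM (per 1000000 UMIs) in the endothelial cells and at 6.62 and 11.98 CPM in lymphocytes.

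The libraries stood apart in ways that the genotype label does not describe. Xist, the RNA of the inactive X chromosome, had 5 UMIs in control and 25529 in FlcniΔEC endothelial cells. Ddx3y, a Y-linked helicase, had 1422 and 0. Sex and genotype therefore cannot be told apart. Cells of many types also fell into different clusters by library, with the 10 genes kept out of the clustering. Of the control B cells with Fcer2a, 713 were in cluster c0 and 663 in c1, whereas 301 of the FlcniΔEC ones were in c28 and 250 in c2. Only 6 barcodes occurred in both libraries, and leaving them out changed no direction of the values below. With 1 library per genotype there was no replicate, so that no test between genotypes was made. All intervals are exact 95% intervals and cover counting error only.

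Flcn itself, the deleted gene, was at 10.2 CPM in control and 9.74 CPM in FlcniΔEC endothelial cells, a ratio of 0.950 (interval 0.773 to 1.17), and at 8.02 and 9.72 CPM without the Ptprc-positive cells described below. In all lymphatic endothelial cells (LECs) it was at 15.1 and 8.84 CPM, a ratio of 0.584 (0.359 to 0.986), whereas blood capillary endothelial cells (capilECs) had 4.52 and 16.9 CPM (3.74, 1.16 to 15.8), from 4 and 13 UMIs. Lymphocytes had 17.5 CPM in each library. The libraries count the 3′ ends of transcripts, so a deleted inner exon need not lower these counts, and the labels were not checked by them.

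Some cells in the endothelial gate also carried Ptprc (CD45), the surface phosphatase of leukocytes. At least 2 UMIs of it were found in 137 control cells (24.2%) and 144 FlcniΔEC cells (16.1%), with median depths of 33480 and 38561.5 UMIs. T cell markers were present in 52 and 42 of them and B cell markers in 52 and 40. Scrublet, a doublet caller, marked 7 and 3 of them. These cells held 60.3% (60.0 to 60.6) of the immediate early gene UMIs of the control endothelial gate and 45.6% (45.4 to 45.9) of those of the FlcniΔEC gate, against 43.7% and 25.5% of the UMIs of all genes. Values of the whole endothelial gate are therefore given with and without them, and they enter none of the endothelial types below.

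As regulatory context, the 250 bases before the transcription start are shown for 5 of the genes, chosen since Fos, Fosb and Junb passed 2-fold between the libraries in some venous or lymphatic cells, Jun did not, and Dusp1 holds a whole cyclic AMP response element (CRE). Ier3 and Nr4a1 also passed 2-fold in Prox1-positive venous cells and are not shown. The sequences are those of RefSeq for GRCm38.p6, on the strand of the gene. Of the 10 genes, 8 had an entry in the set of promoters used, and Egr1 and Ier2 had none there. Capitals mark the core TGACG of the CRE, on either strand, and in Jun a site of the MEF2 type.
Fos, chr12:85473640-85473889 (+): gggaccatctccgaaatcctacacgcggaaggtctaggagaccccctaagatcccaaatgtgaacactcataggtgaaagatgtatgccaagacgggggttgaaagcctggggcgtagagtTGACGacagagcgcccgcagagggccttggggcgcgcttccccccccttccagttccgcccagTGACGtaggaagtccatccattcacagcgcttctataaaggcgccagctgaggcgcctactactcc
Fosb, chr7:19310046-19310295 (-): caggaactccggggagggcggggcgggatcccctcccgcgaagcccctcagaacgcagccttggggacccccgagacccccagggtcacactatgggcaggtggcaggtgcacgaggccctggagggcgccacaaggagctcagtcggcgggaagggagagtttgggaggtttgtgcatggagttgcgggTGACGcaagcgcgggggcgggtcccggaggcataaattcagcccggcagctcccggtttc
Junb, chr8:84978749-84978998 (-): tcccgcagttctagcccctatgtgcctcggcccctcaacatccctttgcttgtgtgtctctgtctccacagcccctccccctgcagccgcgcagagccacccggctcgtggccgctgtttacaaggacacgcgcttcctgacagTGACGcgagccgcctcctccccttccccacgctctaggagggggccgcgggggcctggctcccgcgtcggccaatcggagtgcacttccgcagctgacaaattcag
Dusp1, chr17:26508473-26508722 (-): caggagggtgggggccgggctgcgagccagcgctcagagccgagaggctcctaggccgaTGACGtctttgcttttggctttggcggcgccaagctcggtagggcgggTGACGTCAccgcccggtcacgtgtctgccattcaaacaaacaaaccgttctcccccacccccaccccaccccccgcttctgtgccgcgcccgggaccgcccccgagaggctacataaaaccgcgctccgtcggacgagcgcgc
Jun, chr4:95052223-95052472 (-): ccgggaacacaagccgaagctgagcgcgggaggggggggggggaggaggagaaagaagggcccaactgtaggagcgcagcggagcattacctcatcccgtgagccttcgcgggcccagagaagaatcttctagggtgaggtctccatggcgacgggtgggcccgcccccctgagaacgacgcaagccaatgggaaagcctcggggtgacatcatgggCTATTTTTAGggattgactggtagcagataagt
The CRE core was present in 5 of the 8 promoters and in 17.8% of all 32851 promoters of this length. It began 129 and 66 bases before the start of Fos, 60 before Fosb and 106 before Junb. Nr4a1 had 4 of these cores and Ier3 had none, and both passed 2-fold in Prox1-positive venous cells. Whether the core bears on the differences between libraries was not tested. Dusp1 had 3, of which those at 143 and 140 bases make up a whole CRE (TGACGTCA), a motif found in 1.55% of promoters. The MEF2 site lay 33 bases before the start of Jun, and 2.92% of promoters held one. None of the 8 windows held the CArG box bound by serum response factor (1.47% of promoters) or the AP-1 site TGANTCA (6.75%), which says only that these letters are absent there. The Jund window, chr8:70697489-70697738, follows the RefSeq start. Another annotation starts Jund at 70698949, and the window does not hold the 250 bases before that start.

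The summed level of the 10 genes was lower in FlcniΔEC than in control endothelial cells. It was 8038 CPM in control and 5809 CPM in FlcniΔEC, a ratio of 0.723 (0.717 to 0.728). Without the Ptprc-positive cells it was 5672 and 4241 CPM, a ratio of 0.748 (0.739 to 0.756), and Fosb alone passed 2-fold, against 6.67% of 12003 genes that were lower and 3.97% that were higher. Each of the 10 genes was lower in the FlcniΔEC library over the whole gate. Only Fosb passed 2-fold, whereas 6.24% of the 12798 genes with at least 50 summed UMIs were lower by that much. None of the 10 was higher past 2-fold, against 3.78% of all genes. The median log2 ratio of the 10 genes was -0.58, and that of all genes was -0.13, with 16.2% of genes below the median of the 10. Scaled to 7 reference genes in place of the total, the median of all genes moved to -0.25 and the summed ratio to 0.665. LECs made up 78 of 429 control and 321 of 748 FlcniΔEC endothelial cells without the Ptprc-positive ones. LECs with high and low Lyve1 were among the lowest types in the control, at 4588 and 4911 CPM. Ratios over the gate thus mix its make-up with the levels in each type. With types weighted equally the summed ratio was 0.815.

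Lymphocytes of the same libraries differed less. Their summed level was 8516 CPM in control and 8328 CPM in FlcniΔEC, and the ratio of 0.978 (0.973 to 0.983) turned to 1.07 when scaled to the reference genes, to 1.02 as a mean over cells, to 1.01 with thinned cells and to 1.002 without proliferating cells. Scaling to reference genes moved the median of all genes here from -0.04 to 0.10. None of the 10 genes passed 2-fold, against 1.06% of 11751 genes that were lower and 1.95% that were higher. Over the 10 genes, 7 were lower and 3 higher in FlcniΔEC, with a median log2 ratio of -0.09.

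**Figure D1:**
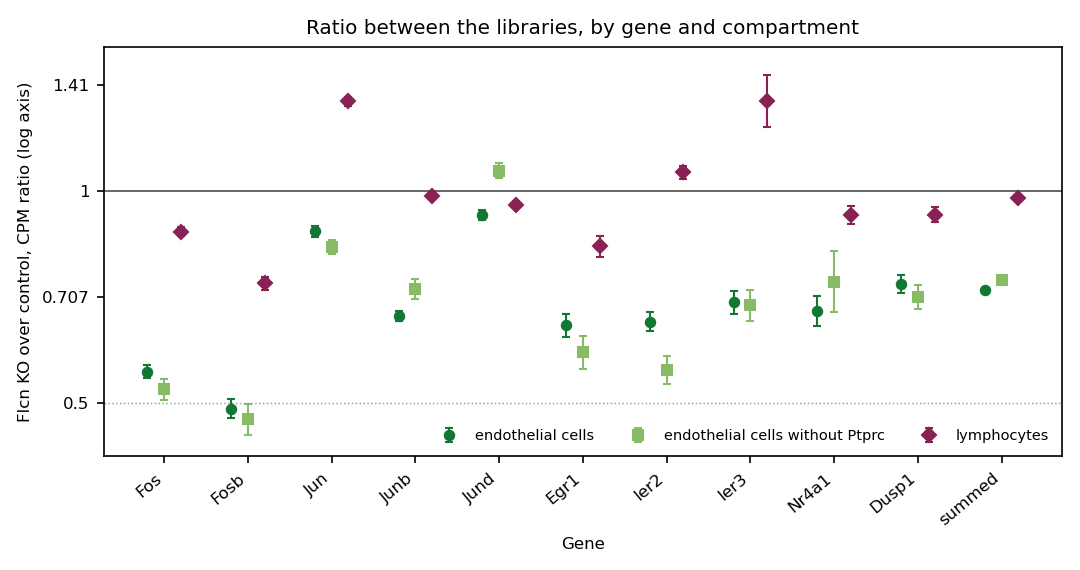
Ratio of FlcniΔEC to control CPM (log axis) for each of the 10 genes and their sum in endothelial cells, in endothelial cells without Ptprc and in lymphocytes; bars are exact 95% counting intervals, and the dotted line marks a ratio of 0.5. Endothelial ratios lie below 1 except Jund without Ptprc-positive cells (1.07, but 0.925 when scaled to reference genes), and lymphocyte Jun (1.34), Ier3 (1.34) and Ier2 (1.06) lie above 1, while the lymphocyte ratios of Junb, Jund, Nr4a1, Dusp1 and the sum rise above 1 when scaled to reference genes.

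Fos encodes a leucine zipper factor that binds DNA as AP-1 once joined to a Jun protein. In endothelial cells it was at 1153 CPM in control and 638 CPM in FlcniΔEC, a ratio of 0.554 (0.542 to 0.566). Without Ptprc-positive cells it was at 720.1 and 376 CPM, a ratio of 0.522. Lymphocytes had 1182 and 1035 CPM, a ratio of 0.875 (0.862 to 0.888). The endothelial level thus lay close to that of lymphocytes in the control (ratio 0.975, 0.958 to 0.992), on a side of 1 that depends on the scaling, and below it in FlcniΔEC (0.617). The closeness in the control rested on the Ptprc-positive cells, without which the ratio was 0.609. Fos was lower in FlcniΔEC beyond counting error in 7 of 8 endothelial types with at least 20 cells in each library and higher in 1, the capilECs (1.33). That ratio turned to 0.741 by clusters in place of marker gates and to 0.991 when cells with any Ptprc UMI were left out. Among the lymphocyte types Fos was lower beyond counting error in 6 of 8, down to 0.614 (0.543 to 0.694) in Tregs. It was higher in 2, CD8 T cells (1.09) and γδ T and NK cells (1.11, but 0.770 by clusters).

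The span of Fos among the endothelial types was wide. In LECs with Lyve1, the hyaluronan receptor of lymphatic capillaries, Fos was at 639 CPM in 25 control cells and 139 CPM in 124 FlcniΔEC cells, a ratio of 0.217 (0.189 to 0.249). In LECs with less Lyve1 it was at 457 and 208 CPM (0.455, 0.403 to 0.515). Venous endothelial cells (VECs) were split by Prox1, the lymphatic fate factor, at a minimum of 2 UMIs. In VECs below that minimum Fos was at 888 and 671 CPM (0.755). In Prox1-positive VECs it was at 976 and 289 CPM (0.297, 0.265 to 0.332). The gap between the libraries was thus wider in the Prox1-positive VECs and the Lyve1-high LECs than in the other VECs, with intervals that do not overlap. Among arterial endothelial cells (AECs), Gja5-positive cells differed less, with 774 and 673 CPM (0.869), and Cxcl12-positive cells had 801 and 544 CPM (0.679). By clusters, Fos in these AECs turned to ratios of 1.28 and 1.06, as a mean over cells to 1.18 in the Cxcl12-positive ones, and without proliferating cells Fos in VECs turned to 1.03.

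Different clusters held these cells in each library. The Prox1-positive VECs were in cluster e6 in the control (18 of 22) and in e18 and e19 in FlcniΔEC (36 and 29 of 67). The other VECs were in e6 (34 of 54) and e18 (67 of 84). Lyve1-high LECs were mostly in e15 and e0 in the control (12 and 10 of 25) and in e21 and e20 in FlcniΔEC (56 and 36 of 124). Lyve1-low LECs were in e0 in the control (38 of 49) and in e17 and e20 in FlcniΔEC (73 and 52 of 172). A genotype effect and a library effect on these clusters cannot be told apart.

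Fosb, a close relative of Fos, moved with it. In endothelial cells it was at 589 CPM in control and 289 CPM in FlcniΔEC (ratio 0.491, 0.476 to 0.506), and without Ptprc-positive cells at 356 and 169 CPM (0.474). In Lyve1-high LECs it was at 319.7 and 80.3 CPM (0.251), in Lyve1-low LECs at 292 and 83.4 CPM (0.286), and in Prox1-positive VECs at 531 and 154 CPM (0.290). Lymphocytes had 687 and 507 CPM (0.739, 0.724 to 0.755), and the ratio was below 1 beyond counting error in 6 of 8 lymphocyte types, with none above. Fosb thus had the lowest endothelial ratio and the lowest lymphocyte ratio of the 10 genes.

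Jun encodes the founding AP-1 partner and can bind DNA as a homodimer. In endothelial cells it was at 1467 CPM in control and 1285 CPM in FlcniΔEC, a ratio of 0.876 (0.861 to 0.891). Without Ptprc-positive cells it was at 1317 and 1097 CPM (0.833). In lymphocytes it went the other way, from 955 to 1279 CPM, a ratio of 1.34 (1.32 to 1.36). Among the lymphocyte types Jun was higher in FlcniΔEC beyond counting error in 7 of 8, from a ratio of 1.04 (0.989 to 1.09) in ILCs, the exception, to 1.51 in regulatory T cells (Tregs). In Tregs, however, 124 of the 371 FlcniΔEC UMIs were in 1 cell, and without the cell richest in the 10 genes in each library the ratio was 1.06 (0.903 to 1.24). By clusters, the ratio in γδ T and NK cells turned to 0.968. Among the endothelial types Jun was lower in 6 of 8 and higher in capilECs (1.34, but 0.979 by clusters), and the lowest ratio was 0.658 (0.620 to 0.699) in Lyve1-low LECs, with 1690 CPM in control and 1113 CPM in FlcniΔEC. In the VECs, at 1699 and 1451 CPM (0.854), the ratio turned to 1.02 when cells with any Ptprc UMI were left out and to 1.04 as a mean over cells.

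Jun and Fos thus parted between the libraries in both compartments. Endothelial cells had 1.27 UMIs of Jun per UMI of Fos in control and 2.01 in FlcniΔEC, and without Ptprc-positive cells 1.83 and 2.92. Lymphocytes had 0.808 (0.797 to 0.818) and 1.24 (1.22 to 1.26). The number was higher in FlcniΔEC in 8 of 8 lymphocyte types, with intervals apart in 8, and in 7 of 8 endothelial types, with intervals apart in 5. It went from 1.87 to 6.16 in Lyve1-high LECs, from 1.68 to 4.66 in Prox1-positive VECs and from 0.906 to 1.66 in all B cells. The exception was Gja5-positive AECs, with 1.79 and 1.71, and capilECs had 1.58 and 1.59. A change of the scaling leaves this ratio as it is, since both genes are counted in the same cells.

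**Figure D2:**
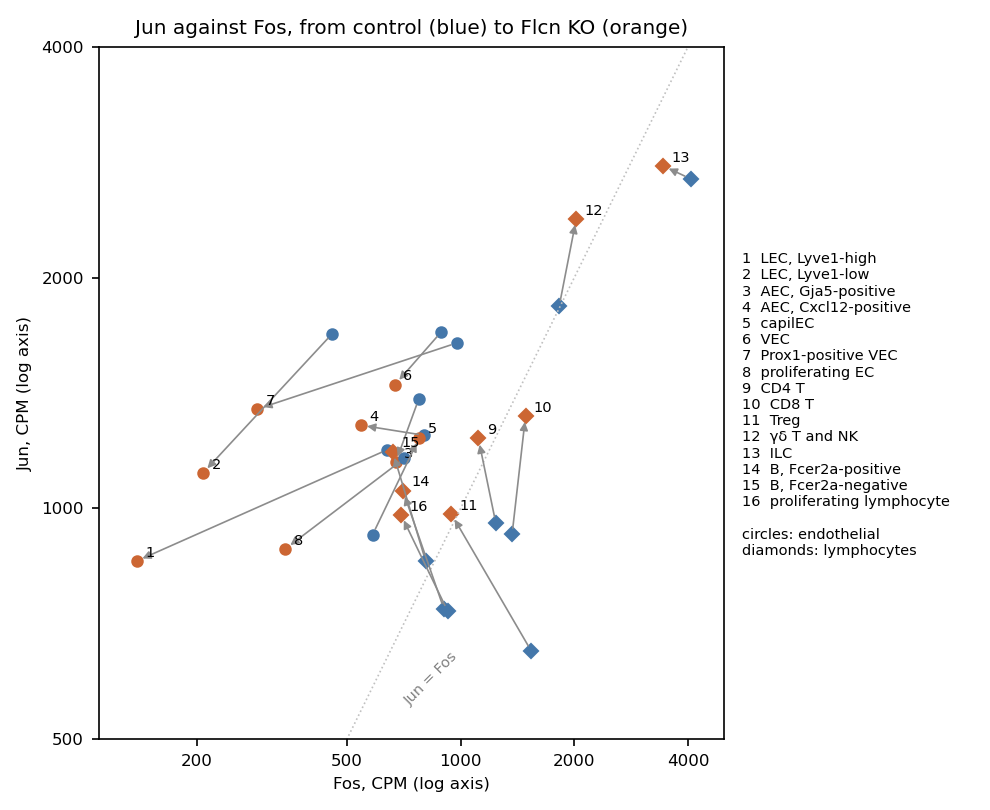
Jun against Fos in CPM (log axes) for 16 cell types, each with an arrow from the control (blue) to the FlcniΔEC (orange) library; circles are endothelial and diamonds lymphocyte types, and the dotted line marks equal levels. Most arrows point to the left or up, toward more Jun per Fos, with 1.87 UMIs of Jun per UMI of Fos in control and 6.16 in FlcniΔEC Lyve1-high LECs (type 1).

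Junb, an AP-1 partner with strong roles in lymphoid and innate cells, was the most abundant of the 10 genes in ILCs and T cells. In endothelial cells it was at 1555 CPM in control and 1033 CPM in FlcniΔEC (ratio 0.664, 0.652 to 0.676), of which 74.5% and 63.1% of the UMIs came from Ptprc-positive cells. Without them it was at 704 and 511 CPM (0.726). In Prox1-positive VECs it was at 960.1 and 359.5 CPM (0.374, 0.336 to 0.417), in Lyve1-high LECs at 589 and 278 CPM (0.471), and in the other VECs at 883 and 755 CPM (0.855). In the latter 191 of 820 control UMIs were in 1 cell, and without the highest cell of each library the ratio turned to 1.03 (0.932 to 1.13). Only in capilECs was it higher beyond counting error, at 689 and 1283 CPM (1.86, 1.68 to 2.06). Lymphocytes had 2014 and 1981 CPM, and this ratio of 0.984 (0.973 to 0.995) turned to 1.08 when scaled to reference genes, to 1.002 without mitochondrial, ribosomal protein and hemoglobin genes in the total, to 1.02 as a mean over cells, with thinned cells or with types weighted equally, and to 1.01 by clusters or without proliferating cells.

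Jund, the Jun relative that many resting cells keep at a steady level, differed least of the 10 genes between the endothelial libraries. It was at 1358 CPM in control and 1255 CPM in FlcniΔEC endothelial cells, a ratio of 0.924 (0.908 to 0.940). Without Ptprc-positive cells it was at 1016 and 1085 CPM, and that ratio of 1.07 (1.04 to 1.10) fell to 0.925 when scaled to reference genes. Over the whole gate the ratio turned to 1.02 as a mean over cells, 1.03 with thinned cells and 1.01 with types weighted equally, so the direction of Jund in endothelial cells depends on such choices. In Lyve1-high LECs it was at 1013 and 1044 CPM (1.03, 0.943 to 1.13, and 0.843 when scaled to reference genes), and in Prox1-positive VECs at 1094 and 1025 CPM (0.937, 0.860 to 1.02, and 1.004 without the highest cells). In these types Jund thus stood within counting error while Fos had ratios of 0.217 and 0.297. Among the 8 endothelial types Jund was lower beyond counting error in 1, the other VECs (0.777). It was higher in 2, capilECs (1.51) and proliferating endothelial cells (1.17, but 0.948 when scaled to reference genes). Lymphocytes had 2139 and 2044 CPM of Jund (0.955, but 1.05 when scaled to reference genes). Among lymphocytes B cells gave Jund the largest share of the UMIs of the 10 genes, 34.4% in control and 34.2% in FlcniΔEC.

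Egr1, a zinc finger factor induced through serum response factor and its partners, was at 344 CPM in control and 221 CPM in FlcniΔEC endothelial cells (ratio 0.644, 0.620 to 0.669). Without Ptprc-positive cells it was at 293 and 173 CPM (0.590). Lyve1-low LECs had 232 and 90.6 CPM (0.390, 0.327 to 0.467), and Lyve1-high LECs had 158 and 79.2 CPM (0.501). Gja5-positive AECs went the other way, with 256 and 349 CPM (1.36). In lymphocytes Egr1 was at 247 and 206 CPM (0.834), below 1 beyond counting error in 7 of 8 types. The lowest of these ratios was 0.474 in proliferating lymphocytes, with 211 and 99.8 CPM.

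Nr4a1, an orphan nuclear receptor that antigen receptor signals induce, was foremost a lymphocyte gene here. In endothelial cells it was at 208 CPM in control and 141 CPM in FlcniΔEC (ratio 0.675, 0.643 to 0.709), with 79.8% and 70.6% of those UMIs in Ptprc-positive cells. Without them it was at 74.7 and 55.5 CPM (0.743), under the lymphocyte levels of 288 and 266 CPM (0.923, but 1.01 when scaled to reference genes). In Lyve1-high LECs it was at 8.98 and 6.92 CPM, with an interval of the ratio from 0.290 to 2.58, so that no difference was detectable at this depth. CapilECs had more in FlcniΔEC, with 70.1 and 155 CPM (2.21, 1.61 to 3.05, and 1.85 without the highest cells). ILCs had 1038 and 1235 CPM (1.19, 1.10 to 1.29).

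Ier2, an early response gene of the nucleus with an unsettled molecular role, was at 506 CPM in control and 329.7 CPM in FlcniΔEC endothelial cells (ratio 0.652, 0.631 to 0.672). Without Ptprc-positive cells it was at 408 and 227 CPM (0.556). In Prox1-positive VECs it was at 413 and 160.2 CPM (0.388), and in Lyve1-low LECs at 196 and 111 CPM (0.569). Lymphocytes had 513 and 544 CPM, a ratio of 1.06 (1.04 to 1.08), so that the difference there was small and of the other sign.

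Ier3, an early response gene that acts in cell survival and NF-kappa B signalling, was the only gene of the 10 that marked endothelium over lymphocytes. It was at 335 CPM in control and 232 CPM in FlcniΔEC endothelial cells (ratio 0.694, 0.668 to 0.721). Without Ptprc-positive cells it was at 294 and 202 CPM (0.688). Lymphocytes had 28.4 and 38.05 CPM (1.34, 1.23 to 1.46). The endothelial level was thus 11.8-fold (11.1 to 12.6) that of lymphocytes in control and 6.11-fold (5.70 to 6.54) in FlcniΔEC, and 10.4-fold and 5.31-fold without those cells. Ier3 alone of the 10 passed 2-fold here, whereas 33.6% of 12781 genes were higher in endothelial cells by that much in control and 34.5% of 12930 in FlcniΔEC. None of the 10 was lower past 2-fold in endothelial cells, against 9.4% and 11% of all genes. Without Ptprc-positive cells Ier3 was still the only gene that was higher by that much, against 34.2% and 35% of all genes. Junb, Jund and Nr4a1 were then lower past 2-fold in control, against 13% of 12467 genes, and Fos, Fosb, Junb, Ier2 and Nr4a1 in FlcniΔEC, against 13.3% of 12633 genes.

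Ier3 went both ways among the endothelial types, and single cells weighed on its values. Prox1-positive VECs had 642 CPM in control and 158 CPM in FlcniΔEC (ratio 0.247, 0.213 to 0.286), with 122 of 399 control UMIs in 1 cell, and 0.317 without the cell richest in the 10 genes in each library. Lyve1-low LECs went the other way, with 84.3 and 156 CPM (1.85, 1.44 to 2.40), with 138 of 669 FlcniΔEC UMIs in 1 cell and 1.49 (1.16 to 1.95) without such cells. B cells with Fcer2a held the lowest level, at 5.50 and 4.68 CPM. Among lymphocytes, Tregs had 56.3 and 376 CPM, but 119 of the 142 FlcniΔEC UMIs were in 1 cell, and without such cells the ratio went from 6.68 to 1.12. In γδ T and NK cells 125 of 158 control and 57 of 108 FlcniΔEC UMIs were in 1 cell each, so no ratio is given.

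Dusp1 encodes a nuclear phosphatase that switches MAP kinases off, so it acts against the signals that induce the other genes. In endothelial cells it was at 524 CPM in control and 386 CPM in FlcniΔEC (ratio 0.737, 0.715 to 0.759), and without Ptprc-positive cells at 488 and 345 CPM (0.707). Gja5-positive AECs had the highest endothelial level, 968 and 612 CPM (0.632). Lyve1-low LECs had 283 and 306 CPM (1.08, but 0.861 when scaled to reference genes). Lymphocytes had 463 and 428 CPM, a ratio of 0.925 that turned to 1.02 when scaled to reference genes.

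The type of at least 20 cells with the lowest summed ratio was the Prox1-positive VECs. This type had no check by clusters, since its cluster e19 held 0 control and 52 FlcniΔEC cells. Its control cells were mostly in e6 beside the other VECs, and were deeper than those (median 22603.5 and 14349.5 UMIs). In this type the summed level was 7213 CPM in 22 control cells and 4048 CPM in 67 FlcniΔEC cells, a ratio of 0.561 (0.541 to 0.582). All 10 genes were lower, and 6 passed 2-fold, whereas 6.15% of 6702 genes were lower and 6.1% higher past 2-fold in this type. The median log2 ratio of the 10 genes was -1.20 and that of all genes -0.03, with 4.04% of genes below the median of the 10. A single control cell held 23.4% of the summed UMIs. Without the highest cell of each library the levels were 6215 and 3932 CPM, the ratio was 0.633 (0.608 to 0.658), and 6 genes still passed 2-fold.

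Both groups of LECs were lower as well. Lyve1-high LECs had 4588 and 2977 CPM (ratio 0.649, 0.621 to 0.678), and 3 of 9 genes with enough UMIs passed 2-fold, against 5.74% of 7584 genes that were lower and 5.39% that were higher. Here too 1 control cell held 25.5% of the UMIs, and without the highest cells the ratio was 0.693 (0.660 to 0.728). Lyve1-low LECs had 4911 and 3586 CPM (0.730), with 3 of 10 genes lower past 2-fold, against 6.78% of 8245 genes lower and 5.05% higher. Proliferating endothelial cells had a ratio close to the latter, at 5022 and 3712 CPM (0.739). Fos (0.484), Fosb (0.453) and Egr1 (0.477) passed 2-fold there, against 4.75% of 8872 genes lower and 3.79% higher. None of the 10 genes was higher past 2-fold in these cells, in the LECs or in the Prox1-positive VECs.

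The VECs with little Prox1 and the AECs lay closer together between the libraries. VECs with little Prox1 had 6976 and 5466 CPM (0.784) and Gja5-positive AECs 6768 and 5868 CPM (0.867). Cxcl12-positive AECs had 5837 and 5371 CPM, and this ratio of 0.920 turned to 1.22 as a mean over cells, to 1.19 with thinned cells and to 1.14 without proliferating cells. CapilECs alone were higher, at 4763 and 6549 CPM (1.37, 1.32 to 1.43), but by clusters in place of the gate the ratio was 0.989. The FlcniΔEC capilEC gate also held more of the lymphatic markers Mmrn1 (12.4 and 255 CPM) and Lyve1 (57.7 and 246 CPM), whose part in this result was not tested. In all, 7 of 8 endothelial types lay below 1 beyond counting error and 1 above. High endothelial cells (8 and 8 cells) had 5426 and 8023 CPM, and lymph node sinus LECs (4 and 25 cells) 799.8 and 4638 CPM, too few cells to compare.

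**Figure D3:**
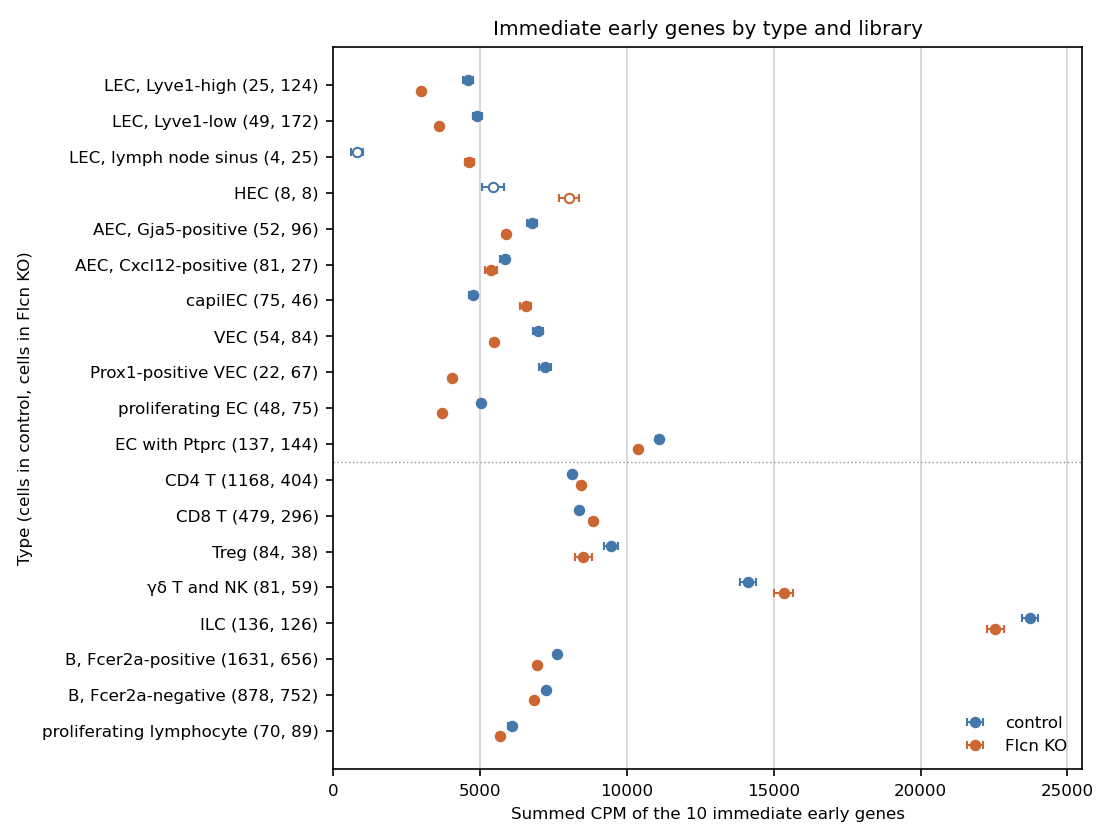
Summed CPM of the 10 genes in each endothelial (upper) and lymphocyte (lower) type of the control (blue) and FlcniΔEC (orange) library, with cell numbers in parentheses, exact 95% counting intervals as bars and open points for fewer than 20 cells. ILCs stand highest in both libraries (23732.5 and 22533 CPM, a direction that turns when scaled to reference genes), and Lyve1-high LECs lowest among types of at least 20 cells.

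Across types, the order of the summed levels was led by lymphocytes in both libraries. ILCs had 23732.5 CPM in 136 control cells and 22533 CPM in 126 FlcniΔEC cells, a ratio of 0.949 (0.933 to 0.966) that turned to 1.03 when scaled to reference genes, to 1.01 by clusters or as a mean over cells and to 1.004 with thinned cells. γδ T and NK cells followed with 14128 and 15332 CPM. The order below these types depends on the scaling. In the control the 7 reference genes summed to 17397 CPM in Tregs but to 8119 CPM in Gja5-positive AECs. By CPM came then, in the control, Tregs (9468), CD8 T cells (8380.3), CD4 T cells (8125) and B cells with Fcer2a (7616). B cells without Fcer2a (7256), Prox1-positive VECs, VECs and Gja5-positive AECs came next, and neighbours among them did not differ beyond counting error. Proliferating lymphocytes (6074) and Cxcl12-positive AECs (5837) stood apart from their neighbours. No such gap was seen from proliferating endothelial cells through Lyve1-low LECs and capilECs to Lyve1-high LECs at the lower end.

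In FlcniΔEC the order by CPM began with the same types, but the cells of the Prox1-positive VEC gate stood near the LECs. Those of the control stood among the highest endothelial types, with 18 of 22 in cluster e6, where 0 FlcniΔEC cells of the gate lay. Whether this gate holds the same kind of cell in both libraries was not tested. In FlcniΔEC too the order below ILCs and γδ T and NK cells depends on the scaling. The reference genes summed to 15146.5 CPM in Tregs and 7884 CPM in Gja5-positive AECs. CD8 T cells had 8842 CPM, and Tregs (8511) and CD4 T cells (8429) did not differ beyond counting error. B cells followed with 6943 and 6826 CPM with and without Fcer2a, then capilECs and Gja5-positive AECs. Proliferating lymphocytes (5678) came next, VECs (5466) and Cxcl12-positive AECs (5371) did not differ from each other, and Lyve1-high LECs were again last.

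The ILCs of both libraries were close in their sum and fell mostly into a shared cluster, with 120 and 114 cells in c19. Junb was at 6573 and 6996 CPM in ILCs, Fos at 4065 and 3438 CPM, and Jun at 2692 and 2798 CPM. Jund had 3446 and 3159.7 CPM, Fosb 2536 and 1910.1 CPM, and Ier2 1509 and 1707 CPM. Egr1 (0.654), Dusp1 (0.683) and Fosb (0.753) had the lowest ratios there. Junb alone thus made up 27.7% and 31.05% of the UMIs of the 10 genes in these cells, whereas in LECs the largest shares were those of Jun in the control (31.0%) and Jund in FlcniΔEC (32.5%). Ier3 was nearly absent from ILCs, at 12.2 and 39.2 CPM, with 21 of the 41 FlcniΔEC UMIs in 1 cell.

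Among the other lymphocytes, the sum went up in some types and down in others. Ratios were 1.04 in CD4 T cells, 1.06 in CD8 T cells and 1.09 in γδ T and NK cells, the last of which turned to 0.895 by clusters. B cells with Fcer2a had a ratio of 0.912 and Tregs 0.899, which turned to 1.04 and 1.03 when scaled to reference genes. B cells without Fcer2a had 0.941 and proliferating lymphocytes 0.935, which by clusters turned to 1.14 and 1.04. All lymphocyte ratios thus lay from 0.899 to 1.09, a narrower span than the 0.561 to 1.37 of the endothelial types, though by clusters capilECs, at the upper end, turned to 0.989 and B cells without Fcer2a to 1.14. In CD4 T cells, Fos was at 1239 and 1115 CPM, a ratio of 0.8997 that turned to 1.02 when scaled to reference genes. These cells were in clusters c4 and c6 in the control (525 and 563 of 1168) and in c31 in FlcniΔEC (308 of 404). CD8 T cells were in c16 (437 of 479) and c17 (203 of 296), and B cells without Fcer2a in c5 (317 of 878) and c28 (549 of 752).

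**Figure D4:**
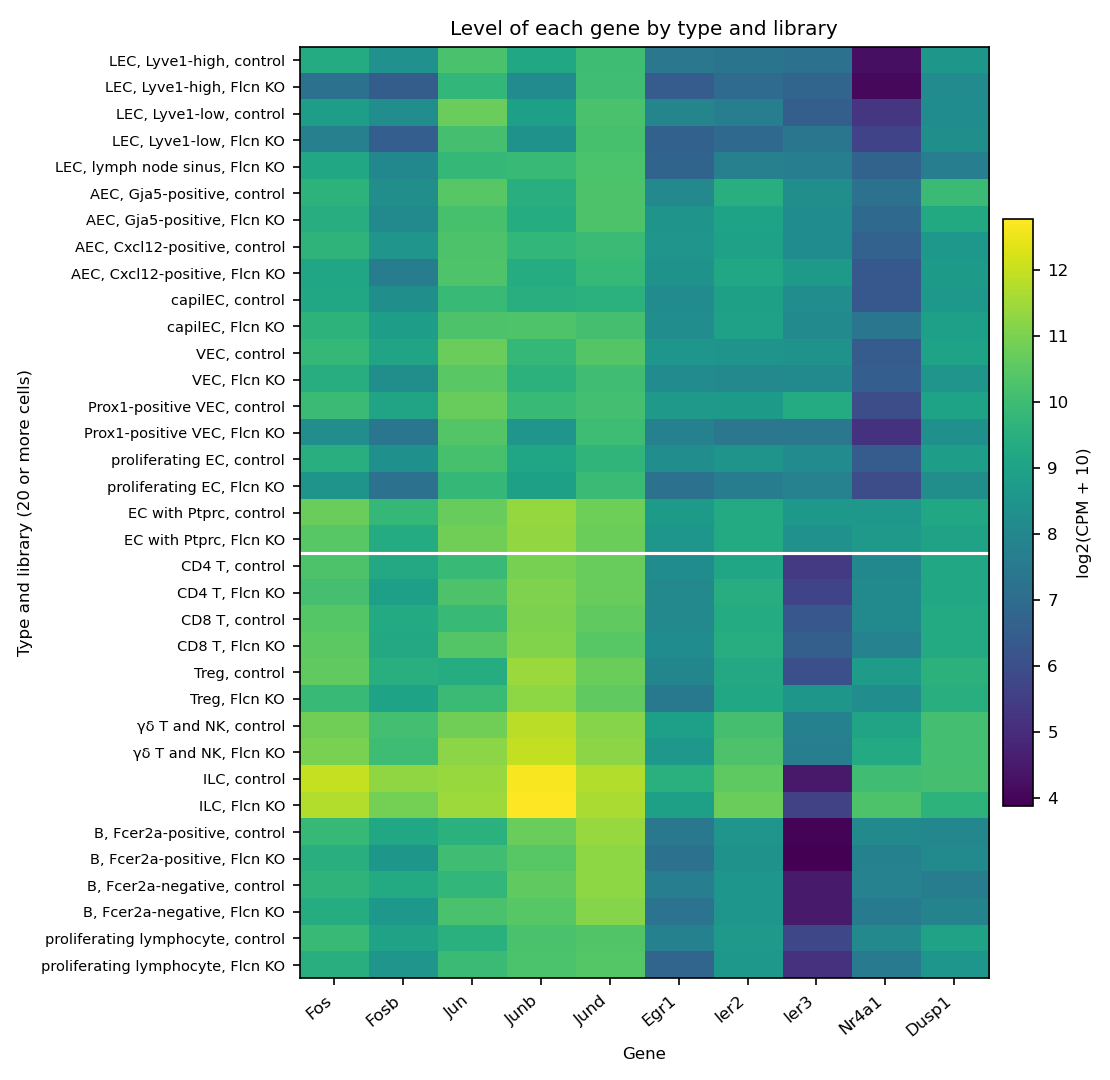
Level of each of the 10 genes, as log2 of CPM plus 10, in every type and library with at least 20 cells; the white line divides endothelial from lymphocyte types. Junb in ILCs is brightest (6573 CPM in control, 6996 in FlcniΔEC), Ier3 is dark in B cells and ILCs, and Fos and Fosb darken from control to FlcniΔEC in LECs and Prox1-positive VECs.

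The compartments were also compared within each library. The summed level of endothelial cells was 0.944 (0.938 to 0.950) of that of lymphocytes in control and 0.698 (0.693 to 0.702) in FlcniΔEC. Without Ptprc-positive cells these ratios were 0.666 and 0.509. The control ratio turned to 1.17 when scaled to reference genes and to 1.05 without Jund, so its side of 1 depends on such choices. Of single genes, Jun was at 1.54 in control and 1.004 (0.989 to 1.02) in FlcniΔEC and Egr1 at 1.39 and 1.07, and for both genes the side of 1 in FlcniΔEC depends on the scaling. Jund was at 0.635 and 0.614. Without Ptprc-positive cells, Jun was at 1.38 and 0.858, Egr1 at 1.19 and 0.840, and Jund at 0.475 and 0.531. Junb was then at 0.349 and 0.258, the gene that leaned most to lymphocytes after Nr4a1 (0.260 and 0.209).

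Depth differed between the groups, so each cell was thinned to 2000 UMIs before cells were compared, which left out 6 control and 3 FlcniΔEC endothelial cells. The median number of UMIs of the 10 genes per thinned cell was 9 in control and 7 in FlcniΔEC endothelial cells, and 7 and 6 without Ptprc-positive cells. Prox1-positive VECs had 11.5 and 6, Lyve1-high LECs 6 and 4, and VECs 8.5 and 6. Lymphocytes had a median of 15 in each library, and ILCs had 48 in each. The lower sums in those endothelial types were thus also seen in the median cell. The median rose from 5 to 9.5 in capilECs and from 5 to 8 in Cxcl12-positive AECs. No UMI of any of the 10 genes was found in 2.50% of control and 3.26% of FlcniΔEC thinned endothelial cells.

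**Figure D5:**
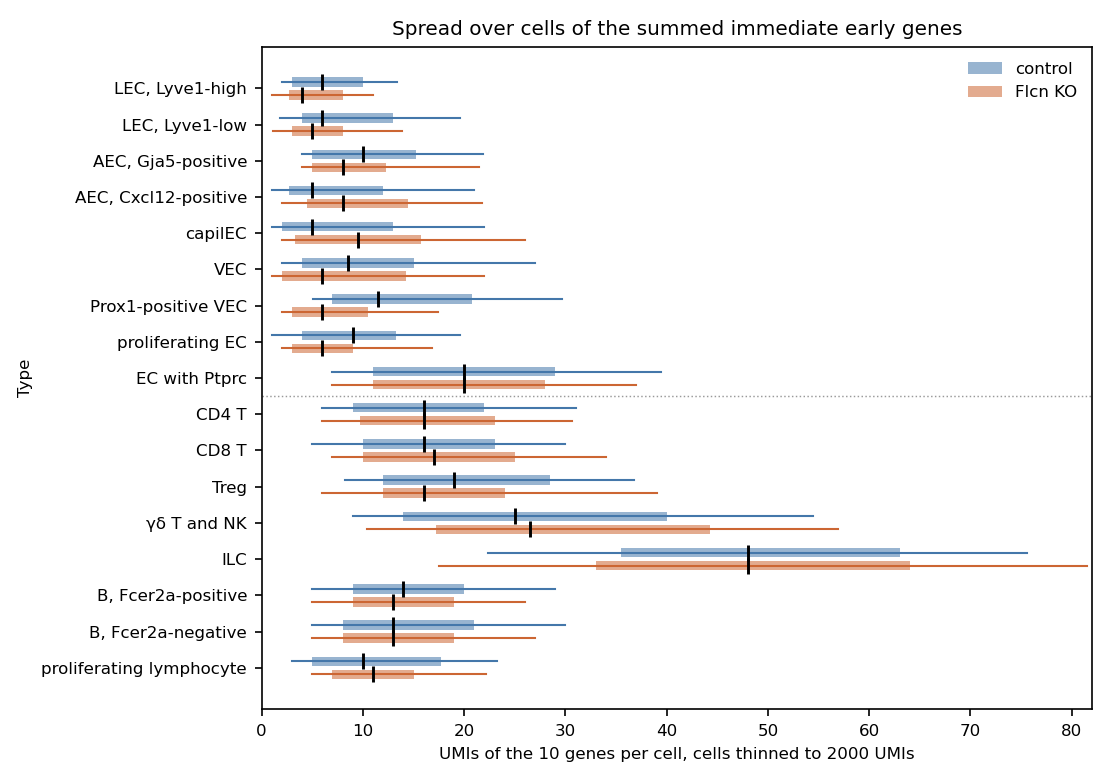
UMIs of the 10 genes per cell after thinning to 2000 UMIs, by type and library; black marks are medians, boxes span the middle 50% of cells and lines the 10th to 90th percentile. The median falls from 11.5 in control to 6 in FlcniΔEC Prox1-positive VECs and is 48 in ILCs of both libraries.

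The share of cells with a UMI followed the levels for Fos and Jun. Fos was seen in 50.7% (46.5 to 54.9) of thinned control and 38.2% (35.04 to 41.5) of thinned FlcniΔEC endothelial cells, and unthinned in 76.5% and 72.9%. In lymphocytes it was seen in 72.7% and 66.4% (unthinned 91.7% and 89.95%). Jun went from 65.6% to 74.3% of thinned lymphocytes (unthinned 87.2% and 93.2%) and from 73.6% to 68.4% of thinned endothelial cells (unthinned 92.8% and 97.1%). No type here lacks Fos or Jun, so no share from free RNA could be read for them. Ier3 was seen in 1.22% and 1.78% of thinned B cells (unthinned 4.11% and 5.61%, median depths of 6273 and 7870.5 UMIs). Free RNA and the cells' own RNA cannot be told apart there, and this share sets no bound for Fos or Jun. Ier3 in thinned endothelial cells was at 27.3% and 26.1% (unthinned 61.8% and 77.8%).

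Over the 29 groups of a type and a library with at least 30 cells, the 10 genes did not vary as a block. As a description, Pearson's r of log levels was 0.974 for Fos with Fosb and 0.968 for Junb with Nr4a1, but 0.478 for Fos with Jun and -0.696 for Jund with Ier3. With the mean of the 10 genes, r was 0.964 for Ier2, 0.959 for Fos, 0.597 for Jun, 0.604 for Jund and -0.0372 for Ier3. Each of the 10 genes is itself part of that mean, which raises its r. Groups share a library and neighbouring types, so they are not independent points. A total of 6286 genes reached 50 CPM in at least 1 group. This number counts the 10 genes and genes of the lists below, which were not candidates in the search. The patterns most like that mean were those of Rnf166 (r 0.941), a ubiquitin ligase gene, Ncor1 (0.913), a nuclear corepressor, and Neurl3 (0.894). Next were Rbl2 (0.886) and Il7r (0.885), the interleukin 7 receptor, which is part of the ILC gate. They were followed by D16Ertd472e (0.884), Cd82 (0.883), Prex1 (0.877), Supt6 (0.877) and Aebp2 (0.875). Of these, 9 had their highest level in ILCs, from 93.7 CPM for Supt6 to 1345 CPM for Il7r.

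A list of other immediate early genes moved less over the whole endothelial gate. Of 46 listed, 45 were in the files and 42 had enough UMIs. Of these, 28 were lower and 14 higher in FlcniΔEC, 1 past 2-fold each way (6.24% lower and 3.78% higher of all genes). The median log2 ratio was -0.16 beside the -0.13 of all genes, so over the whole gate the list lay near the background. The summed level of the listed genes was 8302 and 7507 CPM, with Klf2, a flow-induced factor, the most abundant. The lowest were Cd69 (101 and 48.9 CPM, ratio 0.485), Zfp36 (288 and 154 CPM, 0.533), whose protein degrades short-lived RNAs, and Egr2 (7.95 and 4.45 CPM, 0.559). The highest were Maff (62.3 and 155 CPM, 2.49), a small Maf factor, Dusp2 (144 and 288 CPM, 1.9995) and Cebpb (109 and 174 CPM, 1.61). Genes of this class thus went both ways in the same cells. Without Ptprc-positive cells 25 of 41 were lower and 16 higher, none past 2-fold lower and 5 past 2-fold higher (6.67% and 3.97% of all genes in these cells), with summed levels of 6686 and 6414 CPM. Cd69, a lymphocyte activation receptor, was then at 15.9 and 12.9 CPM (0.812, 0.654 to 1.01), so its difference rested on the Ptprc-positive cells, and Egr2 was at 2.93 and 2.66 CPM (0.910). Zfp36 stayed lower (127 and 71.9 CPM, 0.567), and the higher genes stood further apart, with Maff at 36.9 and 167 CPM (4.54), Dusp2 at 117 and 325 CPM (2.79) and Cebpb at 59.8 and 147 CPM (2.47). By type, Prox1-positive VECs had 22 of 33 listed genes lower, 7 past 2-fold lower and 2 higher (6.15% and 6.1% of all genes). The median log2 ratio there was -0.54, and -0.03 for all genes. Lyve1-high LECs had 5 of 36 past 2-fold lower and 2 higher (5.74% and 5.39% of all genes), whereas Lyve1-low LECs had 15 lower and 21 higher. In capilECs 25 of 31 were higher, with a median of 0.71 and -0.10 for all genes.

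In lymphocytes 18 of 44 of these genes were lower and 26 higher in FlcniΔEC, with a median log2 ratio of 0.10 and summed levels of 11474 and 12170.2 CPM. The most abundant was Btg1 in control (1511 CPM, Klf2 1314) and Klf2 in FlcniΔEC (1624 CPM, Btg1 1464). Past 2-fold 1 was lower and 1 higher, near the 1.06% and 1.95% of all genes. The highest were Socs3 (59.7 and 142 CPM, ratio 2.38), a feedback inhibitor of cytokine receptors, Atf3 (103 and 198 CPM, 1.92) and Rgs1 (61.2 and 109 CPM, 1.78). The lowest were Egr3 (3.07 and 1.52 CPM, 0.495), Arc (9.12 and 6.57 CPM, 0.720) and Zfp36l2 (469 and 353 CPM, 0.753).

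The kinases and factors upstream of immediate early genes were also listed. Of 18 genes, 13 were lower and 5 higher in FlcniΔEC endothelial cells, none past 2-fold (6.24% lower and 3.78% higher of all genes). Their median log2 ratio was -0.19 beside the -0.13 of all genes, and their summed levels were 1498 and 1341 CPM. The most abundant was Mef2c in control (263 CPM, Elk3 255) and Elk3, an ETS factor, in FlcniΔEC (284 CPM, Mef2c 144). Without Ptprc-positive cells 14 were lower and 1 of them passed 2-fold (6.67% of all genes), Mef2c, at 284 and 135 CPM (0.475, 0.449 to 0.502), chosen after its values were seen. The median of the list was then -0.27, and that of all genes -0.15. In lymphocytes 14 of the 18 were lower and 4 higher, none past 2-fold (1.06% and 1.95% of all genes), with 1235 and 1175 CPM and Mef2c on top. The median of the list there was -0.18, and that of all genes -0.04. Heat shock genes, which also respond to handling, moved in the other direction in the same libraries. In endothelial cells 10 of 10 were higher in FlcniΔEC, 2 past 2-fold (3.78% of all genes), with 3409.8 and 4424 CPM, and in lymphocytes 10 of 10 were higher, 6 past 2-fold (1.95% of all genes), with 3708 and 7755 CPM. Hspa8 was the most abundant in each. The highest ratio in each was that of Hspa1a. It was at 55.4 and 375 CPM (6.77) in endothelial cells, 67.6 and 232 CPM (3.43) without Ptprc-positive ones, and 29.6 and 1281 CPM (43.3) in lymphocytes. Without Ptprc-positive endothelial cells 8 of 10 were higher, with 3375 and 3979 CPM. Prox1-positive VECs had 3086 and 3947 CPM, with 8 of 10 higher, whereas Lyve1-high LECs (3462 and 3740.5 CPM, 6 of 10 higher) and Lyve1-low LECs (3669 and 3762 CPM, 7 of 10 higher) differed little in this sum. Their part in the results was not tested.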

How the data were processed

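The authors' deposited matrices hold counts of UMIs per gene and cell, unit count, made from 10x 3′ libraries with Cell Ranger 3.0 on mm10. All deposited cells were kept, and doublets that Scrublet called in each library (142 control, 37 FlcniΔEC) were taken out only in an alternative. Cells were assigned by the UMIs of marker genes, with thresholds set after marker levels had been seen, and 1 marker of the planned list is not reported here. Counts were summed per type and library and divided by the total (CPM). Intervals are exact Poisson, exact conditional (ratios) and Clopper-Pearson (shares). Genes with at least 50 summed counts were compared with all others, and 2-fold was the threshold. Cells were thinned to 2000 UMIs where cells were compared, and shallower cells were left out. Leiden clusters, made without the 10 genes, served as an alternative, and the interval functions were checked on simulated data. Named genes are the 10 genes, the deleted gene, markers, and the 3 highest and 3 lowest of the list of other early genes. Also named are the most abundant gene of each list in each library and the 10 other genes that correlate best with the mean of the members. Mef2c and Hspa1a were chosen after their values were seen. Members and lists were chosen with earlier results of these data known. Python 3.11.15, numpy 2.4.6, scipy 1.17.1, pandas 2.3.3, scanpy 1.11.5, igraph 0.11.9 and matplotlib 3.10.9 were used.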

Additional observations from a re-analysis of the deposited data

Results flagged for a closer look

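Several genes went opposite ways in the compartments. The ratio of FlcniΔEC to control was 0.876 in endothelial cells and 1.34 in lymphocytes for Jun, 0.652 and 1.06 for Ier2, and 0.694 and 1.34 for Ier3. Among the types, the summed ratio was 1.37 in capilECs, above 1 where the other endothelial types with at least 20 cells in each library lay below, and 0.561 in Prox1-positive VECs, the lowest of these. By clusters the capilEC ratio turned to 0.989, and that of Cxcl12-positive AECs turned to 1.22 as a mean over cells, 1.19 with thinned cells and 1.14 without proliferating cells. These differences were not tested, since each genotype had 1 library. Cells outside the endothelial and lymphocyte gates were not described by type, and the summed level of the 10 genes in them was 8210.1 CPM in the control (942 cells) and 6314 CPM in FlcniΔEC (760 cells).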

How the results depend on the processing

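No paired analysis was possible because each genotype had 1 library. Over 15 alternatives the summed FlcniΔEC to control ratio spanned 0.665 to 0.815 in endothelial cells and 0.957 to 1.07 in lymphocytes, and the endothelial to lymphocyte ratio 0.544 to 1.17 in control and 0.452 to 0.754 in FlcniΔEC. Those 4 ratios are given below in that order. The side of 1 was kept by 266 of 280 values of single genes by compartment, 218 of 231 sums by type, and 412 of 428 values of Jun and Fos by type. Genes lower past 2-fold numbered 763 to 1024 in endothelial cells (799 as reported) and 91 to 132 in lymphocytes (124), and genes higher 403 to 521 (484) and 186 to 332 (229). Where a value changed, the cause was not tested.

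Without mitochondrial, ribosomal protein and hemoglobin genes in the total, the 4 ratios were 0.728, 0.996, 0.730 and 0.534, and the ratio of Junb in lymphocytes turned to 1.002. Scaled to 7 reference genes they were 0.665, 1.07, 1.17 and 0.725, and ratios turned for Dusp1 (1.02), Junb (1.08), Jund (1.05) and Nr4a1 (1.01) in lymphocytes, Fos in CD4 T cells (1.02), and the sum in B cells with Fcer2a (1.04), ILCs (1.03) and Tregs (1.03). As a mean of CPM per cell they were 0.809, 1.02, 0.718 and 0.569, and ratios turned for Fos and the sum in Cxcl12-positive AECs (1.18 and 1.22), Jun in VECs (1.04), Jund in endothelial cells (1.02), Junb in lymphocytes (1.02) and the sum in ILCs (1.01). With cells thinned to 2000 UMIs they were 0.809, 1.01, 0.722 and 0.576, and ratios turned for Fos in Ptprc-positive endothelial cells (1.004), Jund in endothelial cells (1.03), Junb in lymphocytes (1.02) and the sum in Cxcl12-positive AECs (1.19) and ILCs (1.004).

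With endothelial cells that had no Ptprc UMI, the endothelial ratio was 0.757 and the endothelial to lymphocyte ratios were 0.625 and 0.484, and ratios turned for Fos in capilECs (0.991), Jun in VECs (1.02) and Jund in endothelial cells (1.10). With at least 4 UMIs of Cdh5, the control endothelial to lymphocyte ratio was 0.951. Without doublets the endothelial ratio was 0.729 and that control ratio 0.937. Without proliferating cells the 4 ratios were 0.700, 1.002, 0.863 and 0.602, and ratios turned for Fos in VECs (1.03), Junb in lymphocytes (1.01) and the sum in Cxcl12-positive AECs (1.14). Without Jund, the most abundant of the 10 genes in lymphocytes, the 4 ratios were 0.682, 0.986, 1.05 and 0.725. When shallow cells (below 1000 UMIs) and cells above 10% mitochondrial UMIs were dropped, none of the 4 ratios left its counting interval.

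By clusters in place of gates, the lymphocyte ratio was 0.999 and the endothelial to lymphocyte ratios 0.879 and 0.635. Ratios then turned for Fos in Cxcl12-positive AECs (1.06), Gja5-positive AECs (1.28), B cells without Fcer2a (1.0004), capilECs (0.741) and γδ T and NK cells (0.770), for Jun in capilECs (0.979) and γδ T and NK cells (0.968), and for Junb in lymphocytes (1.01). The sum turned in B cells without Fcer2a (1.14), ILCs (1.01), capilECs (0.989), γδ T and NK cells (0.895) and proliferating lymphocytes (1.04).

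Some alternatives were added after the data had been seen. With types weighted equally the 4 ratios were 0.815, 0.980, 0.544 and 0.452, and Junb in lymphocytes (1.02) and Jund in endothelial cells (1.01) turned. Without ILCs the lymphocyte ratio was 0.957 and the endothelial to lymphocyte ratios 0.998 and 0.754. Without the highest cell of each type and library these were 0.921 and 0.682. Without the shared barcodes none of the 4 ratios left its counting interval.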

Other observations

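Among the cells in the endothelial gate, those with Ptprc had nearly equal sums in both libraries, 11086 CPM in control and 10391 CPM in FlcniΔEC, a ratio of 0.937. Jun in them was at 1659 and 1832 CPM and Nr4a1 at 380.1 and 389 CPM, above both lymphocytes and the other endothelial cells. Whether these are doublets, endothelial cells with bound lymphoid cells or cells with free RNA was not tested.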
